A study of Mus musculus with 12 samples.

Results

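The cerebellum of Npc1-/- (null) mice was compared between postnatal day 49 (P49) and postnatal day 21 (P21), with 3 arrays at each age and 1 animal per array per the labels. These 6 arrays were chosen by their genotype and time point labels from the 12 arrays of the series. The other 6 arrays hold Npc1+/+ (wild-type) cerebellum, 3 at P21 and 3 at P49, and were used to show how the same genes change over this period in wild-type animals. All mice carried the strain label BALB/c Npc1, were kept on standard chow and received no treatment. The labels do not name the Npc1 allele and do not say whether animals of different groups were littermates. Although 1 protocol field states P21 for the death of all animals, the time point labels separate P21 from P49 and were used here. No batch is labelled, so age or genotype and a batch of extraction or hybridisation cannot be told apart.

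NPC1 is a membrane protein of late endosomes and lysosomes that hands cholesterol on to the rest of the cell. Without it cholesterol and sphingolipids collect in lysosomes, as in Niemann-Pick type C disease, and Purkinje cells, the output neurons of the cerebellar cortex, are among the neurons most prone to die. Between weaning and adulthood the wild-type cerebellum also matures: myelin sheaths and vessels are completed and the growth of axons ends, so a change with age in null animals has to be read beside the same change in wild type.

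Values are log2 intensities after quantile normalization, and a gene is called where limma's Benjamini-Hochberg adjusted p over all 7835 tested genes is under 0.05. Differences are P49 minus P21 in log2 with the standard error of the limma fit, 3 animals per group. Depth has no meaning for arrays, and their number limits the precision. Npc1 was 10.12, 8.25 and 9.65 on the null P21 arrays and 10.53, 9.96 and 9.88 on the null P49 arrays, below the wild-type range of 11.06 to 11.75, and its change with age in null was 0.78 ± 0.37 (limma adjusted p = 0.241). The tissue label was borne out by the granule neuron gene Gabra6, with group means of 16.94 to 17.13, and by the Purkinje cell gene Calb1, with group means of 16.22 to 17.14. The sex labels were not borne out on every array. Xist, the RNA that coats the silenced X in female cells, lay at 15.61 to 15.86 on 9 arrays, and null P49 replicate 1, labelled male, was among them. Lower values were found on 3 arrays labelled female: 9.28 for replicate 2 of wild-type P21, and 13.01 and 13.36 for replicates 2 and 3 of null P21. The Y-linked Eif2s3y was 12.72, 9.25 and 12.67 on these 3, against 4.35 to 8.91 on the 9 arrays with high Xist. The value of 9.25, on null P21 replicate 2, is thus close to the top of that range. Kdm5d, also Y-linked, was 11.37, 10.17 and 11.37 on the same 3 arrays, against 6.51 to 8.82 on the 9 arrays with high Xist. Replicates 2 and 3 of null P21 thus carried both Xist and Y-linked signal, and whether each holds 1 animal was not tested. The null P21 arrays also varied most among themselves, with a median SD over genes of 0.238, against 0.128 for null P49, 0.138 for wild-type P21 and 0.129 for wild-type P49.

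From P21 to P49 the null cerebellum gained transcripts of microglia, phagocytes, lysosomes and reactive astrocytes and lost transcripts of Purkinje cells, while genes such as Col4a1 of the basement membrane, Ugt8a and Gsn of myelin and Hmgcs1 of cholesterol synthesis fell in both genotypes. Of 7835 genes, 218 were called higher (2.78%) and 270 lower (3.45%) with age in null, beside 1635 at an unadjusted p under 0.05. In wild type 13 were called higher (0.166%) and 42 lower (0.536%), beside 783 unadjusted. Of the genes called in null, 56 rose and 43 fell by at least 1 log2, and the median change was 0.69 for those called higher and -0.68 for those called lower. In 481 of the 488 the 3 and 3 null arrays did not overlap, which held for 22.5% of all genes. Of the 488, 38 have a group mean below the intensity of the filter on dim genes (959, log2 9.93), so their sizes are uncertain. Of the 218 called higher, 14 passed this filter only through the null P49 arrays, so the count leans toward rises.

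These counts depend on the spread shared by all groups. When each group's arrays were weighted by their own spread, an alternative chosen after seeing the data, 92 genes were higher and 94 lower in null, all of them among the 488, and 86 were higher and 104 lower in wild type. With only the 6 arrays of a genotype in the fit, null had 84 higher and 62 lower and wild type 51 and 75. Without null P49 replicate 2 the null counts were 78 and 93, and without null P49 replicate 3 they were 90 and 127. The wild-type counts of higher genes were 20 and 43 when null P21 replicates 1 and 2 were left out, 8 without null P49 replicate 2, 2, 3 and 3 without wild-type P21 replicates 1, 2 and 3, and 6, 1 and 1 without wild-type P49 replicates 1, 2 and 3. The wild-type counts of lower genes were 69 when null P21 replicate 2 was left out, 15, 12 and 16 without wild-type P21 replicates 1, 2 and 3, and 13 and 15 without wild-type P49 replicates 2 and 3. The larger count in null than in wild type therefore does not show by itself that more genes changed there, and the test of the difference is the interaction.

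The interaction, the change in null minus the change in wild type, was called for 27 genes upward (0.345%) and 16 downward (0.204%), beside 661 at an unadjusted p under 0.05. Of these 43 genes, 42 were also called with age in null in the same direction, 26 higher and 16 lower. Another 38 of the 488 were called in both genotypes in the same direction, 9 higher and 29 lower, and none of the 38 was called in the interaction. The remaining 408, or 83.6% of the genes called in null, were called neither in wild type nor in the interaction, so for these a change of the same size in wild type was not shown to be there or to be missing. Counts of interactions upward were 42 with null P21 replicate 2 left out, 14 without null P49 replicate 2 or 3, 17 without wild-type P21 replicate 3, and 17 and 16 without wild-type P49 replicates 1 and 2. Counts downward were 29, 4 and 4 without null P49 replicates 1, 2 and 3, 4, 10 and 5 without wild-type P21 replicates 1, 2 and 3, and 3, 4 and 4 without wild-type P49 replicates 1, 2 and 3.

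**Figure D1:**
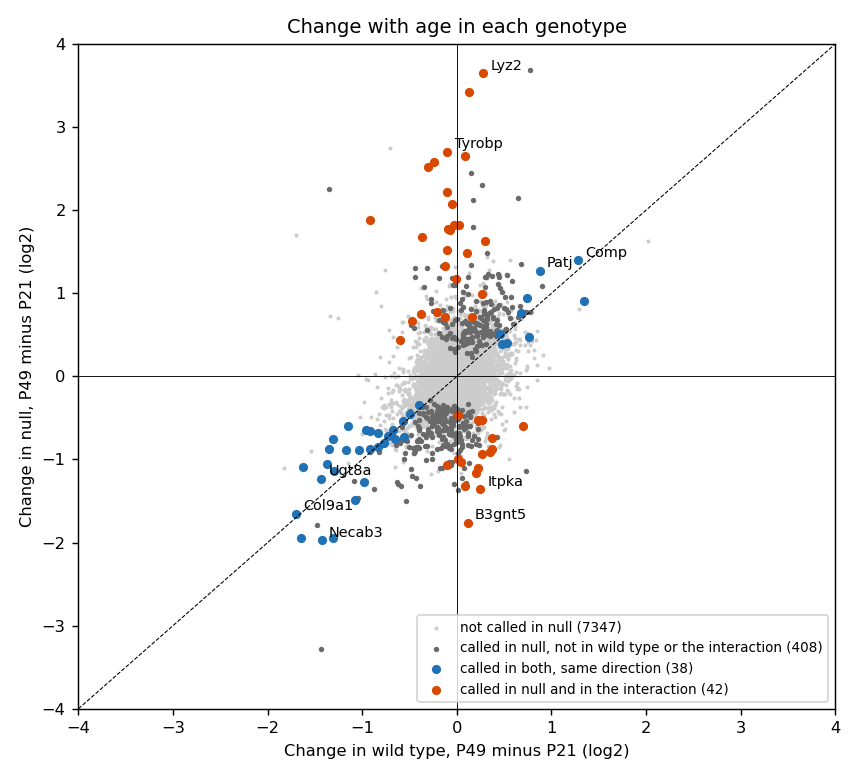
Change with age in log2, P49 minus P21, in wild type (horizontal) and null (vertical) for each of the 7835 tested genes; the dashed line marks equal change. Genes called in both genotypes lie near the dashed line (38, blue), genes called in null and in the interaction lie off it (42, orange), and the 408 genes called in null but not in wild type or the interaction (dark grey) are spread between and around them.

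Microglia, the resident phagocytes of the brain, and markers of their activated state gave the largest rises. Lyz2, the lysozyme of macrophages, was 11.69, 10.26 and 12.17 on the null P21 arrays and 14.75, 15.21 and 15.11 on the null P49 arrays. In wild type it was 10.72, 10.21 and 9.91 at P21 and 10.55, 10.62 and 10.52 at P49. Every null P49 array thus lay above all other arrays, and the wild-type ages overlapped. The gap between the null ages is part of how Lyz2 and the other largest changes were chosen for naming. Lyz2 rose by 3.65 ± 0.36 in null (12.5-fold, limma adjusted p = 6.19e-05) and changed by 0.28 ± 0.36 in wild type (0.882), and the interaction was 3.37 ± 0.51 (0.00717). Its close paralog Lyz1, whose probe sets may share signal with Lyz2, rose by 3.69 ± 0.48 (0.000683), but its 2 further probe sets gave -0.19 and 4.33. The interaction of Lyz1 was not called.

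Tyrobp, the signalling adaptor of Trem2 and other microglial receptors, was 11.80, 11.49 and 11.35 in null at P21 and 14.01, 14.30 and 14.45 at P49. Its wild-type arrays stayed within 10.53 to 11.06 at both ages. All 3 null P21 arrays already lay above the wild-type arrays, and the null P49 arrays lay above them in turn. The rise of Tyrobp with age in null was 2.70 ± 0.17 (6.51-fold, limma adjusted p = 2.44e-06) and its interaction 2.80 ± 0.24 (7.79e-05). The 3 chains of C1q, the opening component of the complement cascade, moved alike. C1qa was 12.77, 12.94 and 12.55 in null at P21 and 14.74, 15.12 and 15.04 at P49, against 11.33 to 11.99 on the 6 wild-type arrays. C1qa, C1qb and C1qc rose by 2.21 ± 0.18, 1.82 ± 0.16 and 2.07 ± 0.18 (limma adjusted p = 1.3e-05, 1.79e-05 and 1.59e-05), with wild-type changes of -0.10, 0.02 and -0.05. The 2 further probe sets of C1qb gave 0.74 and 1.76.

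Receptors and enzymes of activated phagocytes followed. Clec7a, a receptor for fungal glucans that activated microglia express, was 9.62, 10.06 and 9.75 in null at P21 and 12.40, 12.37 and 12.58 at P49, against 8.55 to 9.04 in wild type. It rose by 2.65 ± 0.22 (limma adjusted p = 1.3e-05), but all groups other than null P49 have means below the filter level, so the size is uncertain. Fcer1g, the common gamma chain of Fc receptors, rose by 2.58 ± 0.36 (0.00103), and Cd68, a membrane protein of phagocyte lysosomes, by 2.44 ± 0.36 (0.00146). Mpeg1, a pore-forming protein of macrophages, was 11.60, 11.77 and 11.46 in null at P21 and 13.63, 13.84 and 13.77 at P49, against 6.56 to 8.77 in wild type. It rose by 2.14 ± 0.36 (0.00359), and its null P21 arrays already stood apart from wild type, where its level lay below the filter. In wild type Mpeg1 changed by 0.64. The interactions of Mpeg1 and Cd68 were not called. Lgals3, a galectin of activated macrophages, rose by 1.88 ± 0.35 (0.00624) in null and changed by -0.91 ± 0.35 (0.358) in wild type. Fcer1g lay below the filter level in all groups other than null P49, and Cd68 and Lgals3 in wild type. Clec7a, Fcer1g, Mpeg1 and Lgals3 passed the filter only through the null P49 arrays, where they are high. Clec7a and Mpeg1 fell under the filter in some fits and were tested in 9 and 10 of the 12 without 1 array; with no filter they were called as well (limma adjusted p = 4.42e-05 and 0.00684; 7.31e-06 to 0.000398 and 0.000398 to 0.0314 over the alternatives). The genes in this paragraph kept their call in null in each such fit that tested them, while that of Lgals3 was lost when arrays were weighted by the spread of their group (0.0519; 0.00144 to 0.0519 over the alternatives).

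Of 18 tested genes of the microglia core list 14 were called higher with age in null, beside 2.78% of all genes, and none lower. The median change of the 18 was 1.50, beside -0.01 over all genes. In wild type none of the 18 was called and the median was -0.10. The interaction was called higher for 9 of the 18, beside 0.345% of all genes. Of 15 tested genes of activated phagocytic microglia 14 were called higher, with a median of 1.10. In wild type 1 was called lower and the median was 0.10, and the interaction was called higher for 8 of the 15. Of these lists 4 of 18 and 3 of 15 members passed the filter only through the null P49 arrays, so these counts and medians lean toward rises. Counts and medians without those members were not computed. The summed intensity of the microglia core list was 75741 to 81614 in null at P21 and 186931 to 227812 at P49, and 47876 to 58964 over the wild-type arrays. Not all core markers moved: P2ry12, the purinergic receptor of resting microglia, was 0.19, Tmem119 -0.29, Coro1a -0.20 and Selplg -0.06, and none of these was called. In a whole tissue more cells of a type and more transcript per cell cannot be told apart. Without null P49 replicate 2 or 3 the count of called genes was 9 of the core list and 8 of the activated list, and it was 6 of the core list with the filter at the 60th percentile and 8 of the activated list with arrays weighted by group.

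**Figure D2:**
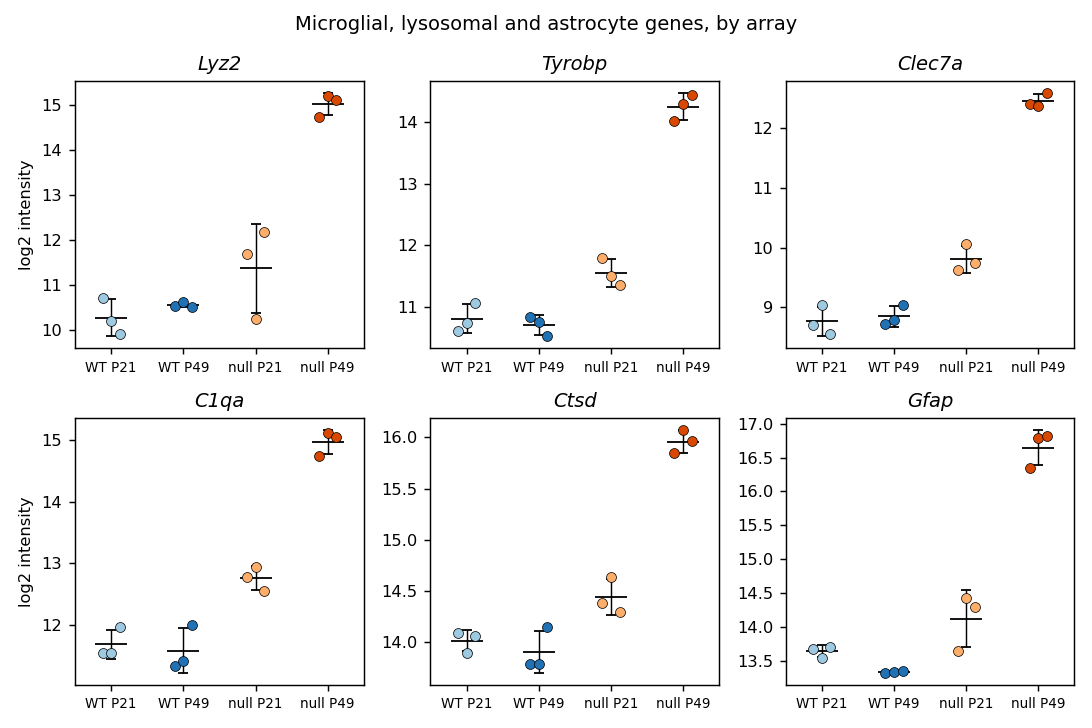
log2 intensity on each of the 12 arrays (points) with the mean and SD of 3 animals (bars) for Lyz2, Tyrobp, Clec7a, C1qa, Ctsd and Gfap. In each panel the 3 null P49 arrays lie above all others, and the wild-type arrays of P21 and P49 overlap for each gene except Gfap, where those at P49 are lower.

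Markers of blood-borne cells were mostly below the filter. None of the 9 neutrophil markers with a probe set passed the filter, and of 9 T cell markers only Zap70 did, at 0.84 ± 0.40 (adjusted p = 0.246). Zap70 was -0.80 in wild type, and its further, dimmer probe set gave -1.71 in null. Of the antigen presentation list B2m, which pairs with MHC class I heavy chains, was the 1 gene of 6 called. B2m was 14.11, 14.29 and 14.23 in null at P21 and 15.21, 15.34 and 15.30 at P49, a rise of 1.07 ± 0.13 (limma adjusted p = 0.00041) with a wild-type change of 0.30 ± 0.13 (0.448). The interaction of B2m was not called. The heavy chains H2-D1 and H2-K1 changed by 0.41 ± 0.17 (0.203) and 0.38 ± 0.20 (0.294), and by 0.63 and 0.67 in wild type. Their probe sets disagree: 8 further ones of H2-D1 gave -1.49 to 1.23 in null, of which 3 passed with rises of 1.23, 1.05 and 1.09 (limma adjusted p over probe sets = 0.000792, 0.00313 and 0.0112), and 3 further ones of H2-K1 gave 1.34 (0.00625), 0.92 (0.00107) and 0.28 (0.786). With the average of probe sets the list's count was 2. Alas2, the haem synthesis enzyme of red cell precursors, had the largest fall in null, from 13.84, 11.82 and 11.20 to 8.74, 8.98 and 9.31. It fell by 3.27 on the log2 scale (SE 0.58, limma adjusted p = 0.00498), to a level below the filter, and was -1.44 ± 0.58 in wild type (0.387). The summed intensity of the blood cell list was 3496 to 16728 in null at P21 and 996 to 1811 at P49, and the part of residual blood in this fall was not tested.

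Many genes of the lysosome rose in null, none was called in wild type, and 7 of 46 were called higher in the interaction. For the other members a difference from wild type was not shown. Ctsd, the aspartic protease cathepsin D, was 14.38, 14.64 and 14.29 on the null P21 arrays and 15.84, 16.07 and 15.96 on the null P49 arrays. The 6 wild-type arrays lay between 13.79 and 14.14 at both ages. No null array at P21 overlapped with wild type, and every null P49 array lay more than 1 log2 higher still. Ctsd rose by 1.52 ± 0.12 (2.87-fold, limma adjusted p = 1.3e-05), with a wild-type change of -0.11 ± 0.12 and an interaction of 1.63 ± 0.17 (0.000569). The proteases Ctss and Ctsz rose by 1.82 ± 0.18 (6.21e-05) and 1.63 ± 0.14 (1.77e-05). Among enzymes whose loss causes other storage diseases, Hexa, the alpha subunit of beta-hexosaminidase, rose by 1.17 (adjusted p = 0.00034) and Gusb, beta-glucuronidase, by 1.02 (0.00497), and Grn, which encodes progranulin, rose by 0.75 (0.00411). The interaction of Gusb was not called.

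Npc2, the soluble partner that passes cholesterol to NPC1 within the lysosome, was 14.42, 14.14 and 14.34 in null at P21 and 14.99, 15.02 and 15.21 at P49. At P21 null and wild type shared a mean of 14.30, and in wild type at P49 the arrays were 14.14, 14.04 and 14.10. The null P49 arrays were thus the only ones set apart. Npc2 rose by 0.77 ± 0.12 (limma adjusted p = 0.00274), with an interaction of 0.98 ± 0.18 (0.0223). That interaction was not called when replicate 1 or 3 of wild-type P21 (0.0733, 0.0782), any replicate of wild-type P49 (0.0614, 0.0884, 0.0708) or replicate 2 or 3 of null P49 (0.0659, 0.0902) was left out, and its adjusted p ran from 0.00277 to 0.0902 over the alternatives. Of 46 tested lysosomal genes 19 were called higher in null, none lower, and 41 were positive, with a median of 0.39. In wild type none was called, 21 of 46 were positive and the median was -0.01. The count was 10 without null P49 replicate 2 and 11 without null P49 replicate 3. The list's summed intensity was 677165 to 717404 in null at P21, 920054 to 1004368 at P49 and 630860 to 646541 in wild type. Lamp1, a structural protein of the lysosomal membrane, was 0.02, the proton pump subunit Atp6v0d1 0.05 and Tfeb, a transcription factor of lysosomal genes, 0.06, and none of these was called. Cd68, Ctss, Ctsd, Ctsb and Ctsz stand in this list and in a microglial list, so the lists are not independent.

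To show what stands at the start sites of genes that rose together, RefSeq promoter windows of assembly GRCm38.p6, each 300 bases that span a start site, were searched on both strands for TCACGTGA, the core of the element bound by TFEB and its relatives, and for GAGGAAGT, a motif of the myeloid factor PU.1. The last bases of the first motif, GA, are the opening bases of the second, so that sites could overlap there. The Ctsd window (chr7:142387778-142388077, minus strand) held TCACGTGA and the C1qc window (chr4:136892865-136893164, minus strand) held GAGGAAGT in reverse complement, each marked in capitals:
Ctsd: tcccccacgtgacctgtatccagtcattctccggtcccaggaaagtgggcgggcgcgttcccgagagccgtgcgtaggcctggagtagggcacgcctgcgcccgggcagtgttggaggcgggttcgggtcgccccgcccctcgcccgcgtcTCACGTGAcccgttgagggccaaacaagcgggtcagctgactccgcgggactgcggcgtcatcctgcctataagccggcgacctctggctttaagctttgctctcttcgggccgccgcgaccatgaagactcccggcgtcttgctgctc
C1qc: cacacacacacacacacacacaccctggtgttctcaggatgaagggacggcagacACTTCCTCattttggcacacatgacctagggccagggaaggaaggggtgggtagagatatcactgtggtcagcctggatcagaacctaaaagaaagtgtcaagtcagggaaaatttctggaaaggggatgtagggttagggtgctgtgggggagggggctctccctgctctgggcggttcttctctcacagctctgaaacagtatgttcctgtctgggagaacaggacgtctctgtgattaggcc
Of 41 tested lysosomal genes with a window, 5 (12.2%) held TCACGTGA, namely Ctsa, Ctsd, Cln3, Mcoln1 and Atp6v0d1, of which Ctsa and Ctsd were called higher. The call of Ctsa was lost without null P49 replicate 2 (0.0569) or 3 (0.0802), with a range of 0.0114 to 0.0979 over the alternatives. It stood in 1.12% of all 27025 genes with a window and in 2.36% of the 6401 tested genes with one. GAGGAAGT stood in 3 of 13 core microglial genes with a window (23.1%), namely C1qc, Ctss and Cd53, in 3.69% of all genes with a window and in 3.03% of the tested ones. It also stood in 3 of the 41 lysosomal genes (7.32%), namely Ctsc, Ctss and Gusb, and Ctss is in both lists. Of 17 lysosomal genes called higher that have a window, 3 held GAGGAAGT (17.6%) and 2 held TCACGTGA (11.8%). A match describes these letters and does not show binding.

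Astrocytes showed a rise in the filament proteins of their reactive state. Gfap, the intermediate filament of astrocytes, was 13.65, 14.44 and 14.30 in null at P21 and 16.34, 16.78 and 16.81 at P49. In wild type it was 13.68, 13.55 and 13.71 at P21 and 13.33, 13.34 and 13.35 at P49, so that its wild-type arrays were lower at the later age while the null arrays were higher. Gfap rose by 2.52 ± 0.17 in null (5.73-fold, limma adjusted p = 4.07e-06), changed by -0.31 ± 0.17 in wild type (0.618) and had an interaction of 2.83 ± 0.25 (7.79e-05). The filament gene Vim rose by 1.23 ± 0.17 (0.00099) and A2m, a protease inhibitor of Bergmann glia, by 1.22 ± 0.16 (0.000792), with wild-type changes of 0.43 and 0.53. The interactions of Vim and A2m were not called, nor was that of Aqp4. Aqp4, the water channel of astrocyte endfeet, rose by 0.65 ± 0.13 (0.00789), a call lost without null P49 replicate 2 (adjusted p = 0.054; 0.00191 to 0.0556 over the alternatives). Of 7 tested reactive astrocyte genes 3 were called higher, and 1 of the 7 passed the filter only through null P49. None of 20 astrocyte and Bergmann glia genes was called in the interaction. Of this list, Fabp7 was called lower in null at -0.91 and was -0.92 in wild type, where it was not called. The null call of Fabp7 held in 9 of the 12 fits without 1 array. Ntsr2 was called higher in both genotypes, at 0.95 in null and 0.74 in wild type. Its null call held in all 12 of these fits and its wild-type call in 7. In wild type 1 of the 20 was called higher, with a median of 0.12. In null 4 were called higher and 2 lower, with a median of 0.31. The count of those higher was 2 without null P49 replicate 2 and 9 without null P21 replicate 2, and that of those lower was 0 without null P49 replicate 2 or 3.

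Most tested Purkinje cell genes fell in null, none was called in wild type, and 4 of 24 were called lower in the interaction. For the other members a difference from wild type was not shown. Pcp2, a modulator of G protein signalling that is nearly confined to Purkinje cells in this tissue, was 17.27, 17.28 and 17.23 in null at P21 and 16.93, 16.35 and 16.61 at P49. The wild-type arrays lay between 17.10 and 17.27 at both ages. At P21 the genotypes overlapped, and at P49 every null array was below every other array of the series. Pcp2 fell by 0.63 on the log2 scale (SE 0.11, limma adjusted p = 0.00441), and changed by 0.07 ± 0.11 in wild type. Of its 2 further probe sets the brighter gave -0.98 and the dimmer 0.31, and with the average of probe sets or only the null arrays the call was lost (limma adjusted p = 0.529 and 0.0557; 0.000308 to 0.529 over the alternatives). Its interaction, -0.70 ± 0.15, was not called (0.0722).

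Other neuronal genes fell as well. Itpka, a kinase of inositol trisphosphate in dendritic spines, was 12.94, 13.12 and 13.06 in null at P21 and 12.35, 11.15 and 11.56 at P49, against 12.75 to 13.45 in wild type. All 3 null P49 arrays were the lowest of the series. It fell by 1.36 on the log2 scale (SE 0.23, adjusted p = 0.00411), with a wild-type change of 0.25 ± 0.23. Cacna1g, a T-type calcium channel, was 13.48, 14.02 and 13.87 in null at P21 and 12.91, 12.49 and 12.65 at P49, against 13.29 to 13.94 in wild type. It fell by 1.11 on the log2 scale (SE 0.16, adjusted p = 0.00146). Kcnma1, the large-conductance calcium-activated potassium channel, fell by 0.93 (SE 0.14, 0.00202), and Ebf2, a transcription factor of Purkinje cell subtypes, by 1.16 (SE 0.20, 0.00359), to null P49 values of 9.60, 9.46 and 9.74 that lie below the filter level. Thy1, a surface glycoprotein of projection neurons, fell by 0.53 (SE 0.10, 0.00696). Without the 3 arrays whose sex-linked genes stand apart, which leaves 1 null P21 array with the spread taken from the other groups, Ebf2 and Thy1 lost their calls (0.0616 and 0.0733; 0.00175 to 0.0616 and 0.00221 to 0.0805 over the alternatives). The interactions of these 5 genes were called, at -1.61 ± 0.33 for Itpka (limma adjusted p = 0.0485), -1.33 ± 0.23 for Cacna1g (0.0174), -1.20 ± 0.20 for Kcnma1 (0.0147), -1.36 ± 0.28 for Ebf2 (0.0459) and -0.75 ± 0.14 for Thy1 (0.0278). Each of these interactions lost its adjusted p under 0.05 in some fit without 1 array. With null P49 replicate 2 left out it was 0.114 for Itpka, 0.0659 for Cacna1g, 0.0652 for Kcnma1, 0.15 for Ebf2 and 0.0636 for Thy1. Over the alternatives it ran from 0.0023 to 0.183, 0.00619 to 0.0742, 0.00835 to 0.0652, 0.0197 to 0.168 and 0.00852 to 0.112 for the genes in this order.

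Of 24 tested Purkinje cell genes 17 were called lower with age in null and none higher, with a median of -0.63. Of the 24, 2 had a positive difference there, and in wild type 23 of the 24 were positive, none was called and the median was 0.20. Besides those above, the members called lower include Calb1, the calcium buffer calbindin (-0.60), Car8, which binds the inositol trisphosphate receptor (-0.71), Slc1a6, the glutamate transporter EAAT4 (-0.83), and Rora, the nuclear receptor mutated in staggerer mice (-0.47). These 4 calls were lost without null P49 replicate 2 (limma adjusted p = 0.139, 0.104, 0.0548 and 0.152 in this order). Those of Calb1, Car8 and Rora were also lost without null P49 replicate 3 (0.114, 0.101 and 0.0546), that of Calb1 without null P21 replicate 3 (0.0743), and that of Rora without null P21 replicate 2 (0.0567) or null P49 replicate 1 (0.0779). Over the alternatives they ran from 0.00421 to 0.145 for Calb1, 0.000238 to 0.123 for Car8, 0.00463 to 0.0828 for Slc1a6 and 0.00727 to 0.299 for Rora. Aldoc, the zebrin marker of Purkinje cell stripes, was 0.10, and Pvalb, which interneurons share, was -0.30, and neither was called. The summed intensity of the list was 1088278 to 1233844 in null at P21 and 725712 to 959021 at P49, and 1020680 to 1261354 over the wild-type arrays. The count was 7 without null P49 replicate 2 and 9 without null P49 replicate 3, 7 with arrays weighted by the spread of their group and 3 with only the null arrays in the fit, while the median stayed between -0.79 and -0.52 in all alternatives.

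**Figure D3:**
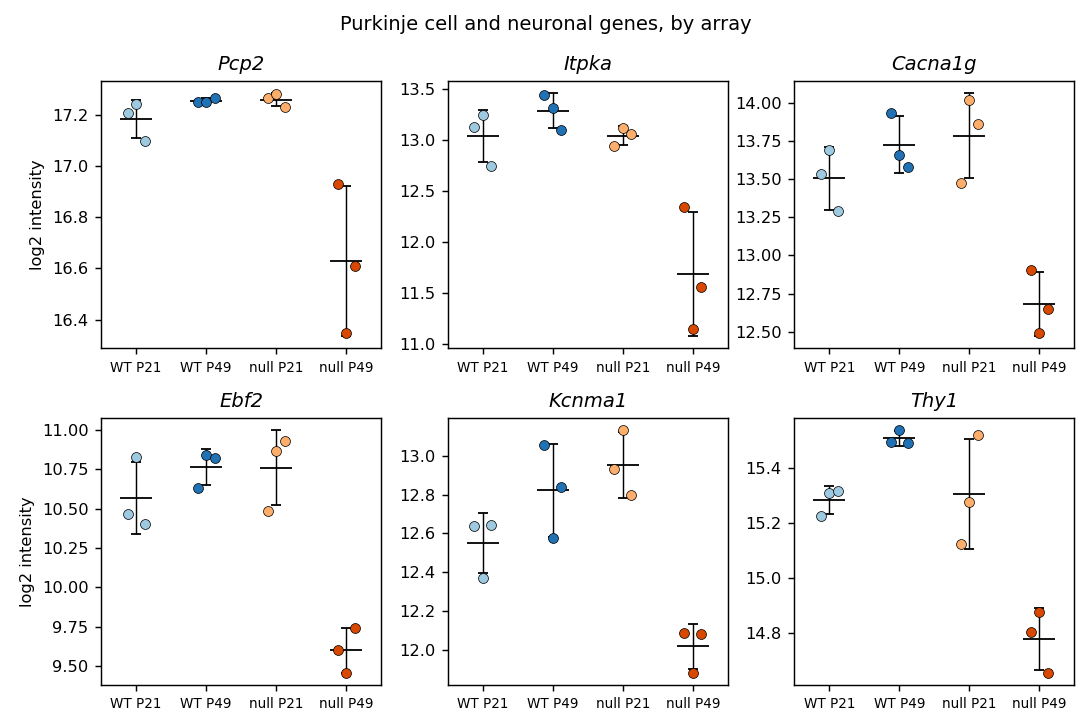
log2 intensity on each of the 12 arrays (points) with the mean and SD of 3 animals (bars) for Pcp2, Itpka, Cacna1g, Ebf2, Kcnma1 and Thy1. The 3 null P49 arrays are the lowest in each panel, and the null P21 arrays lie within or close to the range of the wild-type arrays.

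Outside the Purkinje list, the deepest fall with an interaction was that of B3gnt5, a glycosyltransferase of lacto-series glycolipids. B3gnt5 was 12.26, 12.56 and 12.43 in null at P21 and 11.12, 10.33 and 10.51 at P49, against 11.89 to 12.37 in wild type. The null P49 arrays were the 3 lowest. It fell by 1.76 on the log2 scale (SE 0.19, limma adjusted p = 0.000122), with an interaction of -1.87 ± 0.27 (0.00539) that was lost with the average of probe sets (0.154; 0.00101 to 0.154 over the alternatives). Tnc, the matrix glycoprotein tenascin C, fell by 1.37 (SE 0.24, 0.00498) with a wild-type change of 0.01 ± 0.24 and an interaction that was not called (0.119). Beside the 3.45% of all genes called lower, 3 of 14 voltage-gated channel genes were called lower and none higher in null, with a median of -0.33, and this count was 6 without null P21 replicate 3. Of 19 granule neuron genes 2 were called lower, with a median of -0.05, a count of 0 without null P49 replicate 2 or 3. None of 10 interneuron genes was called, though 1 was without null P21 replicate 1 or 3. Of oxidative phosphorylation genes 1 of 24 was called lower (4 without null P21 replicate 2, 0 without null P49 replicate 2 or 3), of chaperones 2 of 18 (0 without null P21 replicate 1 or any null P49 array), of synaptic vesicle genes 1 of 16, and of 11 cell division genes none (1 higher without null P21 replicate 1).

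Th, tyrosine hydroxylase, the rate-limiting enzyme of catecholamine synthesis, had one of the largest rises. Th was 8.47, 9.91 and 8.50 on the null P21 arrays and 12.15, 12.47 and 12.53 on the null P49 arrays, against 8.96 to 9.90 in wild type. The null P49 arrays were the only ones above the filter level, so the size of the rise, 3.42 ± 0.38 (limma adjusted p = 0.000149), is uncertain. Its interaction was 3.30 ± 0.53 (0.0111). Since Th passed the filter only through null P49, it was not tested in the 3 fits without 1 null P49 array; with no filter the change in null and the interaction were called (0.000358 and 0.0212; 5.54e-06 to 0.00402 and 0.000299 to 0.0475 over the alternatives). Dbh, a later enzyme of noradrenaline synthesis, was not above the filter, with group means of 8.88 in null at P21 and 9.31 at P49. Neat1, a long noncoding RNA of nuclear paraspeckles, rose in null from 11.12, 9.33 and 11.66 to 12.63, 13.29 and 13.09, by 2.30 ± 0.44 (limma adjusted p = 0.0071). That call was lost with only the null arrays in the fit (0.0661), and its adjusted p ran from 0.00159 to 0.0661 over the alternatives. Neat1 changed by 0.27 in wild type, and its interaction was not called.

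Markers of choroid plexus and meninges varied widely between arrays. Ttr, the transthyretin of choroid plexus, was 12.58, 17.37 and 16.45 in null at P21 and 17.61, 16.23 and 17.66 at P49. The groups overlapped, and its change of 1.70 ± 1.30 was not called (limma adjusted p = 0.482). The summed intensity of 12 choroid plexus genes was 9668 to 192208 in null at P21 and 82056 to 228533 at P49, and 3 of the 12 were tested, with none called. Ecrg4, a secreted peptide precursor that choroid plexus makes, was 9.46, 9.58 and 10.61 in null at P21 and 13.28, 11.12 and 12.00 at P49. It rose by 2.25 ± 0.55 (0.0279), but the call was lost without null P21 replicate 1 (0.0644) or null P49 replicate 1 (0.1) or 3 (0.0831), and ran from 0.0116 to 0.124 over the alternatives. Of 12 meningeal genes 2 were called higher, the matrix proteoglycans Ogn at 1.80 (0.0185) and Dcn at 1.21 (0.0283), with summed intensities of 94235 to 213707 at P21 and 215800 to 227602 at P49. The call of Ogn was lost without null P49 replicate 2 (0.0822) or 3 (0.0702), with a range of 0.00125 to 0.0822, and that of Dcn without null P49 replicate 1 (0.0575), 2 or 3 (0.105 each), with a range of 0.000172 to 0.114. The meningeal count was 1 without null P49 replicate 1, 0 without null P49 replicate 2 or 3 and 4 without null P21 replicate 2. The part of choroid plexus and meninges in these rises was not tested. Ecrg4, Ogn and Dcn changed by -1.36, 0.17 and 0.37 in wild type, and their interactions were not called.

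Changes with age that null shared with wild type were mostly falls, and they stand for what both genotypes did between these ages. Of the 55 genes called in wild type, 53 (96.4%) had the same sign in null, 38 (69.1%) were called there too and 45 changed in null by at least 0.5 of the wild-type change. The 38 are 7.79% of the 488 genes called in null. Of the 488, 75.4% had the same sign in wild type, against 61.8% of all genes. The null and wild-type differences share no arrays, but their tests share 1 estimate of each gene's spread, so the calls are not independent. With only the arrays of each genotype in its fit, 32 genes were called in both in the same direction, 21 of them among the 38. Across all genes the 2 changes correlated with r = 0.35 and rho = 0.34, a description, since genes are not independent replicates. The count of 38 was 15, 13 and 19 without wild-type P21 replicates 1, 2 and 3, 14 without wild-type P49 replicate 2 or 3, 24 without null P49 replicate 3 and 68 without null P21 replicate 2.

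Among the shared falls 7 named genes kept their call in wild type in every alternative in which they were tested. Necab3, a calcium-binding protein, was 12.84, 12.75 and 12.81 in null at P21 and 11.13, 10.54 and 10.80 at P49. The wild-type values were 12.96, 12.67 and 12.66 at P21 and 11.53, 11.38 and 11.10 at P49. Both genotypes were thus alike at P21 and lower without overlap at P49. Necab3 fell by 1.97 on the log2 scale in null (SE 0.16, limma adjusted p = 1.3e-05) and by 1.43 in wild type (SE 0.16, 0.00236), and the 95% interval of the difference ran from -1.05 to -0.05 before adjustment. Fxyd7, a regulator of the sodium pump in neurons, fell by 1.48 in null (4e-05) and by 1.07 in wild type (0.00279). Stx1a, a SNARE protein of synaptic vesicle release, fell by 1.09 in null (0.00567) and by 1.62 in wild type (0.00241). Col9a1, a chain of the fibril-associated collagen IX, fell by 1.65 in null (0.000887) and by 1.70 in wild type (0.00279), with an interaction of 0.04 and a 95% interval of -0.63 to 0.72, wide enough to hold a difference of over 1.5-fold either way.

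Basement membrane genes were among these shared falls. Col4a1, a chain of the collagen IV network of vessels, was 13.11, 13.29 and 12.69 in null at P21 and 11.22, 11.04 and 10.99 at P49. In wild type it was 12.74, 12.58 and 12.95 at P21 and 11.95, 11.15 and 11.25 at P49. The ages did not overlap in either genotype. It fell by 1.95 on the log2 scale in null (SE 0.21, limma adjusted p = 0.000111) and by 1.30 in wild type (SE 0.21, 0.0106). The wild-type call did not hold when replicate 1 (0.0573) or 3 (0.0568) of wild-type P21 or replicate 2 (0.0738) or 3 (0.0667) of wild-type P49 was left out, and its adjusted p ran from 0.00117 to 0.0738 over the alternatives. Col4a2, the partner chain, fell by 1.46 in null (SE 0.25, 0.00409) and was -1.04 ± 0.25 in wild type (0.107). Of 23 tested collagen and matrix genes 6 were called lower and 1 higher in null, with a median of -0.24, and 3 were called lower in wild type, with a median of -0.40. The count of those lower in null was 3 with the filter at the 60th percentile, and that of those higher was 0 without any 1 null P49 array. Col18a1, a collagen of basement membranes, departed from this: it fell by 1.32 in null (SE 0.18, 0.00099) and was 0.08 ± 0.18 in wild type, with an interaction of -1.41 ± 0.26 (0.0242) that was lost in 11 of 23 alternatives (0.00379 to 0.0992), including those that left out replicate 1 (0.0733) or 3 (0.0959) of wild-type P21, replicate 3 (0.0505) of null P21, any replicate of wild-type P49 (0.0691, 0.0992 and 0.0708) or replicate 3 (0.0902) of null P49.

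Col4a1 and Col4a2 lie head to head, and the RefSeq windows around their start sites (GRCm38.p6, chr8:11312777-11313076 on the minus strand and chr8:11312555-11312854 on the plus strand) share 78 bases, shown in capitals, that each gene reads from its own strand. They are shown because the members of the pair were lower together:
Col4a1: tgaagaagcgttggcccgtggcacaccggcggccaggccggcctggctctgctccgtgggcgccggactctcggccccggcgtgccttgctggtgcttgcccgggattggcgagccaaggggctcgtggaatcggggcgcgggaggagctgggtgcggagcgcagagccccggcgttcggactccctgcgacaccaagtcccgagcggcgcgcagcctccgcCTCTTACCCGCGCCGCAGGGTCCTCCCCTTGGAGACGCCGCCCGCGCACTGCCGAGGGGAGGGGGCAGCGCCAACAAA
Col4a2: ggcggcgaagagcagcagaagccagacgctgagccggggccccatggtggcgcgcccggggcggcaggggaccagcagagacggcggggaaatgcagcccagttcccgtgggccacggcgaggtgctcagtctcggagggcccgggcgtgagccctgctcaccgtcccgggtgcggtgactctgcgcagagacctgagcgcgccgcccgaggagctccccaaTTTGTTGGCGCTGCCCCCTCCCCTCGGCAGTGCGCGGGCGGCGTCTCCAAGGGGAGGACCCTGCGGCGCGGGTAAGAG
The windows describe a shared position, and no regulation was measured.

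**Figure D4:**
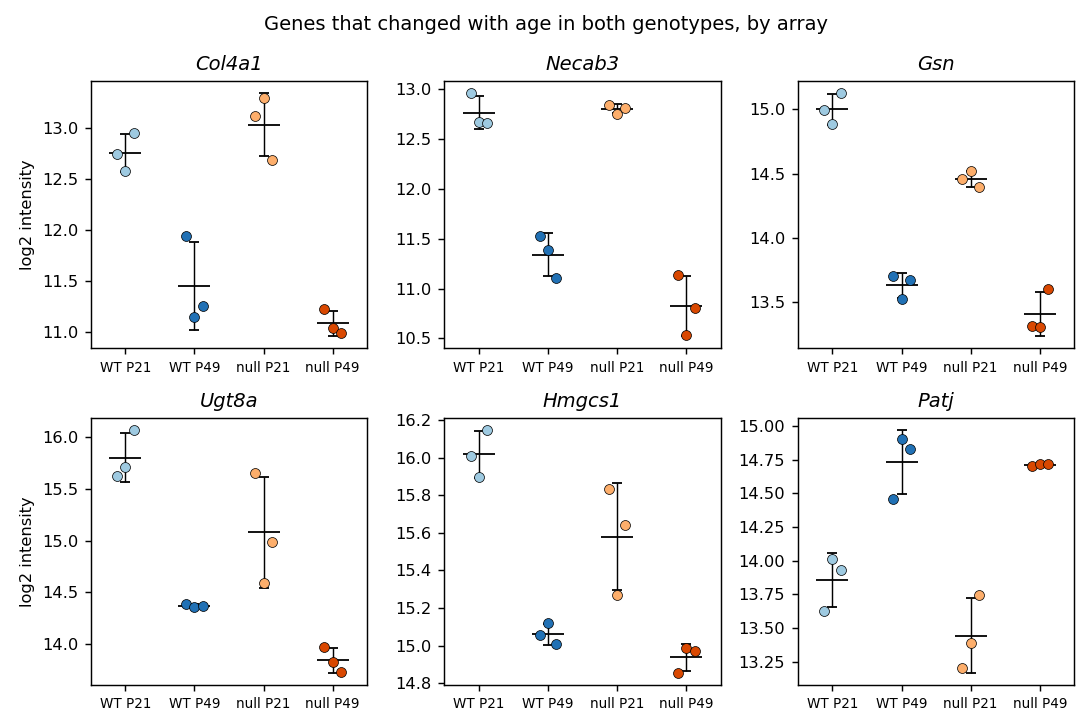
log2 intensity on each of the 12 arrays (points) with the mean and SD of 3 animals (bars) for Col4a1, Necab3, Gsn, Ugt8a, Hmgcs1 and Patj. In each genotype the P21 and P49 arrays of these genes do not overlap; Patj is higher at P49 and the others are lower.

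Some genes of myelin and of its lipids fell in both genotypes. Gsn, the actin-severing protein gelsolin, which oligodendrocytes make in quantity, was 14.46, 14.52 and 14.39 in null at P21 and 13.31, 13.30 and 13.60 at P49. In wild type it was 14.99, 14.88 and 15.13 at P21 and 13.70, 13.52 and 13.67 at P49, so the null arrays lay below the wild-type arrays at P21 and overlapped with them at P49. Gsn fell by 1.05 in null (SE 0.11, limma adjusted p = 7.36e-05) and by 1.37 in wild type (SE 0.11, 3.77e-05). Ugt8a, the enzyme that makes galactosylceramide, was 15.66, 14.59 and 14.98 in null at P21 and 13.97, 13.83 and 13.73 at P49, a fall of 1.24 (SE 0.20, 0.00274), against a fall of 1.43 in wild type (0.00479). Of 26 myelin genes 7 were called lower and 4 higher with age in null, with a median of -0.13, and 7 lower and none higher in wild type, with a median of -0.43. The 7 lower in null were 2 with only the null arrays in the fit. The 4 called higher in null, Car2 (0.63), Qdpr (0.70), Plekhb1 (0.81) and Evi2a (0.76), were 0.31, 0.32, 0.40 and 0.28 in wild type, where none was called. Mbp, the major protein of compact myelin, was -0.05 and -0.06. The myelin list's median difference between null and wild type was -0.42 at P21 and -0.07 at P49. The summed intensity of the list was 632168 to 747143 in null at P21 and 805596 to 945648 in wild type, and 668140 to 712428 and 688251 to 704368 at P49.

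Nearly all cholesterol synthesis genes had a negative difference with age in both genotypes, and a few passed the test. Hmgcs1, which makes the precursor HMG-CoA, was 15.83, 15.27 and 15.64 in null at P21 and 14.86, 14.99 and 14.97 at P49. The wild-type values were 16.01, 15.90 and 16.15 at P21 and 15.06, 15.12 and 15.01 at P49. It fell by 0.64 in null (SE 0.12, limma adjusted p = 0.00684) and by 0.96 in wild type (SE 0.12, 0.00241), and the null call was lost with only the null arrays in the fit (0.0695; 0.000161 to 0.0695 over the alternatives). Of 19 tested genes none was positive in null and 1 was positive in wild type, with 4 called lower in each, and the medians were -0.36 and -0.37. The null count was 2 without null P49 replicate 2 or 3, with the Xist level as a covariate or with arrays weighted by group, and 0 with only the null arrays. Of 14 efflux and transport genes 2 were called higher, Npc2 as given above and Apoe, the main lipoprotein of brain, which rose by 0.53 (0.025); the count was 5 without null P21 replicate 2 and 1 without null P49 replicate 2 or 3. The call of Apoe was lost without null P49 replicate 2 (0.0986) or 3 (0.107) and with the values as deposited (0.178), and ran from 0.000933 to 0.24 over the alternatives.

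Of the few shared rises, Patj, a scaffold of tight junctions and cell polarity, was 13.20, 13.39 and 13.74 in null at P21 and 14.71, 14.71 and 14.72 at P49. It rose by 1.27 ± 0.15 in null (limma adjusted p = 0.000311) and by 0.88 ± 0.15 in wild type (0.0163). The wild-type call did not hold when replicate 1 (0.0896) or 3 (0.0536) of wild-type P21 or replicate 2 (0.115) or 3 (0.0997) of wild-type P49 was left out, and its adjusted p ran from 0.0013 to 0.115 over the alternatives. Of 24 genes of immature neurons and axon growth 5 were called lower and 2 higher in null, with a median of -0.28, and 3 lower and 1 higher in wild type, with a median of -0.14. The null count of those lower was 2 without any 1 null P49 array, 3 without wild-type P21 replicate 2 or without wild-type P49 replicate 1 or 2, and 1 with arrays weighted by group or only the null arrays, and 1 was higher in 15 alternatives, among them all fits without 1 array of either P49 group. Marcksl1, which acts on the actin cytoskeleton, was -0.87 in null and -0.92 in wild type, and both calls were lost with the average of probe sets (limma adjusted p = 0.112 and 0.323). The wild-type call was also lost when replicate 2 of wild-type P21 (0.0574) or P49 (0.058) was left out, and the adjusted p ran from 0.000121 to 0.112 in null and 0.000107 to 0.323 in wild type. Cdkn1a, the cell cycle inhibitor p21, fell by 1.79 in null (SE 0.32, 0.00509) and was -1.48 ± 0.32 in wild type (0.0538), an example of a gene that is close to the threshold in wild type without passing it.

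Some wild-type changes were not called in null. There were 15 such genes, among them the myelin genes Mal (-1.02 in wild type and -0.49 in null) and Cnp (-0.49 and -0.24), the sterol enzymes Fdps (-0.69 and -0.33) and Cyp51 (-0.81 and -0.59), and the cell cycle inhibitor Cdkn1c (-1.54 and -0.90). Sytl2, a Rab27 effector, was -0.76 in wild type and -0.00 in null, with an interaction of 0.76 ± 0.21 (limma adjusted p = 0.208). The wild-type calls of these 6 genes were all lost when replicate 1, 2 or 3 of wild-type P21 or replicate 2 or 3 of wild-type P49 was left out. Their adjusted p reached 0.195 for Mal, 0.164 for Cnp, 0.124 for Fdps, 0.5 for Cyp51, 0.195 for Cdkn1c and 0.168 for Sytl2 over the alternatives, from 0.000148, 0.00492, 0.00336, 0.0097, 0.00492 and 0.00441. None of the 15 was called in the interaction, so a smaller change in null was not shown for any of them. These genes were chosen for naming after their values were seen.

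Fabp5 and Inpp4a had opposite signs in the genotypes, and the test that bears on this is the interaction. Inpp4a, a phosphatase of inositol lipids, was 13.08, 13.36 and 12.97 in null at P21 and 12.37, 12.50 and 12.74 at P49, while in wild type it was 12.28, 12.62 and 12.35 at P21 and 13.01, 13.18 and 13.17 at P49. The ages do not overlap in either genotype, and null P21 lies beside wild-type P49. The interaction of -1.30 ± 0.20 (limma adjusted p = 0.00717) was called in every alternative (0.00513 to 0.0394). The call in null alone (0.0229) was lost without null P49 replicate 1 (0.0836) or 2 (0.095) and ran from 0.00507 to 0.111 over the alternatives. The call in wild type was lost when replicate 1 (0.156), 2 (0.0577) or 3 (0.172) of wild-type P21, replicate 1 (0.066), 2 (0.176) or 3 (0.162) of wild-type P49 or replicate 2 of null P49 (0.0593) was left out, with a range of 0.00441 to 0.397. Fabp5, an epidermal-type fatty acid binding protein, was 15.37, 14.89 and 15.08 in null at P21 and 15.41, 15.72 and 15.51 at P49, and 14.59 to 14.66 in wild type at P49 after 15.15, 15.18 and 15.38 at P21. Its interaction was 1.03 ± 0.17 (0.0124), lost with replicate 2 of wild-type P49 (0.0517) or of null P49 (0.0539) left out, with a range of 0.00351 to 0.0539. Its change of 0.44 ± 0.12 in null (0.0473) was called in 4 of 24 alternatives (0.0117 to 0.426) and lost in all fits without 1 array except that without null P21 replicate 1, reaching 0.214 without null P49 replicate 2. Its wild-type call was lost without any 1 wild-type array (0.0913 to 0.195) or null P49 replicate 3 (0.0647), with a range of 0.00296 to 0.195.

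For the genes called in null the wild-type change can be given as a share of the null change. Of the 218 called higher, 54 had the opposite sign in wild type, 46 had a share from 0 to 0.25, 56 from 0.25 to 0.5 and 62 of 0.5 or more, with a median of 0.28. Of the 270 called lower the counts were 66, 59, 68 and 77, with a median of 0.29. These genes were chosen by their null change, so the shares are a description.

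**Figure D5:**
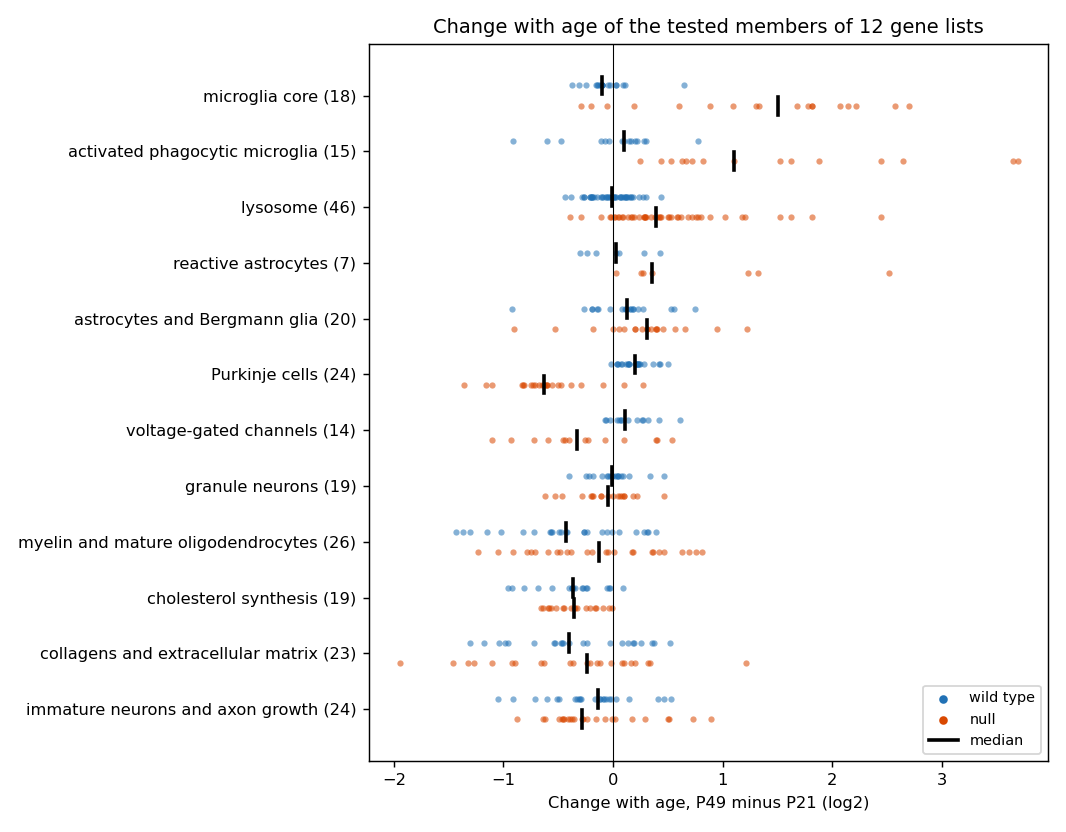
Change with age in log2 (P49 minus P21) of each tested member (points) of 12 gene lists in wild type and null, with the list median (black bars) and the number of tested members in parentheses. The medians of the 2 microglial lists and the lysosome list are 1.50, 1.10 and 0.39 in null against -0.10, 0.10 and -0.01 in wild type, that of the Purkinje list is -0.63 against 0.20, and that of cholesterol synthesis is -0.36 against -0.37. Of the 2 microglial lists 14 of 18 and 12 of 15 members pass the filter without the null P49 arrays, so their null medians lean toward rises.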

How the data were processed

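Gene expression was measured on 12 one-colour oligonucleotide arrays, and the values are probe set intensities as deposited by the authors; the algorithm that made them is not given in the sources used here, and each deposited array had a 2% trimmed mean of 5002. From the 22690 probe sets, those with 1 gene symbol were kept. The intensities were offset by 16, log2 transformed and quantile normalized, 1 probe set per gene (highest mean) was used, and genes below the 40th percentile were left out, so that 7835 of 12393 genes were tested. limma 3.58.1 in R 4.3.3 fitted 4 group means over 12 arrays with a mean-variance trend, and p-values were adjusted by Benjamini-Hochberg. The code was tested on simulated data. Named genes were the most changed in each class plus known members of the lists. The largest rises and falls in null were taken only from called genes whose 3 and 3 null arrays did not overlap. For those genes the separation of the null ages was fixed by that choice. The comparison, members and lists were chosen with earlier results of these data known. Alternatives covered scaling, offset, filter, probe sets, trend, Xist level, the replicate block and each array left out; the weighting of arrays by group and the wild-type arrays fitted alone were added after seeing the data. Labels give individual animals, and p-values measure the spread between animals only if this holds. For null P21 replicates 2 and 3, which carried both Xist and Y-linked signal, this was not tested. Same-numbered samples varied together weakly at most, with correlations of -0.18 to 0.19 and 6 of 18 over 0.1, so replicate numbers were not used as pairs. All 3 correlations were positive for wild-type P21 with wild-type P49 and for wild-type P49 with null P49.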

Additional observations from a re-analysis of the deposited data

Results flagged for a closer look

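The change with age differed between null and wild type, by limma's interaction test with an adjusted p under 0.05, for these genes named here. The difference (null change minus wild-type change, log2) was positive for Lyz2 (3.37), Th (3.30), Gfap (2.83), Fcer1g (2.82), Tyrobp (2.80), Lgals3 (2.79), Clec7a (2.56), C1qa (2.31), C1qc (2.12), Ctss (1.85), C1qb (1.79), Ctsd (1.63), Cd53 (1.45), Ctsz (1.32), Hexa (1.18), Grn (1.13), Fabp5 (1.03), Npc2 (0.98), Jun (0.79) and Ctsb (0.56). It was negative for Thy1 (-0.75), Kcnma1 (-1.20), Krt81 (-1.25), Ptprr (-1.26), Inpp4a (-1.30), Cacna1g (-1.33), Ebf2 (-1.36), Col18a1 (-1.41), Itpka (-1.61) and B3gnt5 (-1.87). Of these 30 genes, 13 kept the call in every alternative in which they were tested: Lyz2, Th, Gfap, Tyrobp, Clec7a, C1qa, C1qb, C1qc, Ctss, Ctsd, Ctsz, Grn and Inpp4a. Th, Clec7a, Fcer1g and Lgals3 passed the filter only through null P49, the group where they are high, so their place in this list leans toward rises. Th and Clec7a were tested in 9 of the 12 fits without 1 array, in none of those without a null P49 array. Jun, an immediate early transcription factor, was not called with age in either genotype, at 0.36 ± 0.11 in null (limma adjusted p = 0.0769) and -0.43 ± 0.11 in wild type (0.143).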

How the results depend on the processing

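No named call changed sign under any alternative, and 52 of 99 calls in null, 7 of 31 in wild type and 13 of 30 in the interaction were kept in every alternative that tested them. Without the 3 arrays whose sex-linked genes stand apart, null P21 is 1 array, assumed to vary like the other groups. Genes called higher in null (218) were 92 with arrays weighted by group and 84 with only the null arrays, and 78 to 292 with 1 array left out. Genes called lower in null (270) were 174 with the Xist level as a covariate, 94 weighted, 62 with only the null arrays and 93 to 355 with 1 array left out. In wild type the 13 higher were 7 without the trend, 65 without the 3 arrays, 86 weighted, 51 with only the wild-type arrays and 1 to 43 with 1 array left out, and the 42 lower were 104, 75 and 12 to 69 (weighted, wild-type arrays only, 1 array left out). The 27 upward interactions were 14 to 42 with 1 array left out. The 16 downward were 10 without the filter, 8 without the trend, 10 with the replicate block, 10 weighted and 3 to 29 with 1 array left out. The share of null calls with the same sign in wild type was 81.5% without the 3 arrays and 68.9 to 79.6% with 1 array left out, and that of wild-type calls in null was 100% with averaged probe sets and 92.9 to 100%. The 38 genes called in both were 60 without the 3 arrays, 63 with wild-type arrays fitted alone and 13 to 68. With the replicate block, null had 184 higher and 240 lower, though replicate numbers were not taken as pairs in the main fit. The causes were not tested. Dim genes are limited by the signal over background.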
